A study of Mus musculus with 3 samples.

Results

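The 6 genes described here encode the enzymes that cut and finish peptide hormones and the small proteins that bind those enzymes. They are Pcsk1 and Pcsk2 (the prohormone convertases PC1/3 and PC2), Pcsk1n (proSAAS, an inhibitor of PC1/3), Scg5 (7B2, a chaperone and inhibitor of PC2), Cpe (carboxypeptidase E) and Pam (peptidylglycine alpha-amidating monooxygenase). They were chosen by name as the core machinery of POMC maturation, and all 6 of 6 had a row among the 17775 genes of the deposited tables. Each was followed in single cells of dissected mouse intermediate lobes (IL, the melanotroph-rich part of the pituitary), in 3 libraries with 1 library per genotype. WT cells carried Sox9iresCreERT2/+, P27NULL cells Sox9iresCreERT2/+;p27-/-, and S2CK cells Sox9iresCreERT2/+;Sox2fl/+;p27-/-. All mice were 3 months old and had been given tamoxifen by gavage, at 4 weeks of age according to the labels but at birth according to the text of the study, a difference that could not be settled here, so that the Sox9-driven Cre recombinase, active in stem cells (SCs), was present in every group including the control. The methods of the study also give all 3 genotypes a Rosa26ReYFP/+ reporter allele and describe male and female cells. The study lists each library as a pool of mice, males for WT and male with female for P27NULL and for S2CK. With 1 library per genotype no difference has a replicate check, no test was possible, and every interval below covers counting error only.

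POMC, the precursor protein of melanotrophs and corticotrophs, is cut at pairs of basic residues as it moves through the secretory granules. PC1/3 makes the first cuts, which release ACTH, and PC2 makes the later cuts, which in melanotrophs turn ACTH into the precursor of alpha-MSH. CPE then trims the basic residues left at the cut ends, and PAM converts a terminal glycine into the amide group that alpha-MSH carries, while proSAAS and 7B2 hold PC1/3 and PC2 in check and 7B2 is needed for PC2 to become active.

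On mm10 (GRCm38), Pcsk1 lies at chr13:75089420-75134861, Pcsk2 at chr2:143546133-143816284, Pcsk1n at chrX:7919822-7924410, Scg5 at chr2:113776313-113829091, Cpe at chr8:64592542-64693109 and Pam at chr1:97821091-98095853. The promoters of the genes with the largest differences below, Pcsk2 and Pam, and of the other convertase, Pcsk1, are printed for GRCm38.p6 on the strand of the gene. Each runs from 250 bases before to 50 bases after the start used for its promoter window. For Pcsk2 that start is the gene start given above, whereas for Pam and Pcsk1 it lies inside the gene bounds given above. They are chr2:143545883-143546182 on the plus strand for Pcsk2, chr1:98095597-98095896 on the minus strand for Pam and chr13:75089607-75089906 on the plus strand for Pcsk1. Capitals mark GC boxes (GGGCGG) and cAMP response element half-sites (TGACG), each on either strand.
Pcsk2: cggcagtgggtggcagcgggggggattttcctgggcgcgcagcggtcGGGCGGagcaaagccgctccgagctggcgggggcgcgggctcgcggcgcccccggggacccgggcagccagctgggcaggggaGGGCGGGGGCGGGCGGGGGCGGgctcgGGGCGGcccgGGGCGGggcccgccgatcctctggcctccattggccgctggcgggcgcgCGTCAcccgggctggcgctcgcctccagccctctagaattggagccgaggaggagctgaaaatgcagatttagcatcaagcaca
Pam: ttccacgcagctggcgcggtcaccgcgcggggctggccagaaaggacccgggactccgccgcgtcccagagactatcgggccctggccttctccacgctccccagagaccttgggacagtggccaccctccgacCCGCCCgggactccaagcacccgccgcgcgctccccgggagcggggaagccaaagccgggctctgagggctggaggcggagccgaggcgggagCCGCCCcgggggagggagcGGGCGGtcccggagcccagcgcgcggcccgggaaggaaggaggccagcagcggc
Pcsk1: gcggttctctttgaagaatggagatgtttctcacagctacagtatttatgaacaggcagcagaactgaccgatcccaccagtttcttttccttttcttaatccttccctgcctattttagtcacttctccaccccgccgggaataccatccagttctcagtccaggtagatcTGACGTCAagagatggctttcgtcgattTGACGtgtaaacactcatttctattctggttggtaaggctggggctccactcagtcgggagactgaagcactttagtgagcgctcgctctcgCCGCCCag
The first 2 promoters were the more GC-rich, with 76.3% G or C in both against 49.3% for Pcsk1 and a median of 52.7% over 27025 promoters. The Pcsk2 window held 7 GC boxes, a number reached by 0.648% of all promoters, and the Pam window held 3, reached by 10.7%. The Pcsk2 window also held 3 copies of the EGR site GCGGGGGCG, 2 of which overlap these boxes, and this site was present in 2.92% of promoters. Pcsk1 had the full palindrome TGACGTCA, found in 1.88% of promoters and counted as 2 of its 3 half-sites, and Scg5 also had 3 half-sites, a number reached by 1.07% of promoters. Neither TATAAA (14.2% of promoters) nor the E-box CATCTG (17.2%) occurred in any of the 5 member promoters in the table, which were those of Pcsk1, Pcsk2, Pcsk1n, Scg5 and Pam. These letter matches are descriptions of the windows only.

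The tables held 2020 cells for WT, 4153 for P27NULL and 3488 for S2CK, with 8332285, 15588317 and 19239147 unique molecular identifiers (UMIs, counted transcripts) and median UMIs per cell of 3642.5, 2740 and 4906.5. Only 10 barcodes were found in more than 1 library. The WT table had no row for Xist, the P27NULL table held 766 cells with Xist and no Y-linked UMI (female) and 3370 without Xist (called male), and the S2CK table had no row for 4 Y-linked genes and 3274 cells with Xist. A Y-linked UMI was seen in 771 P27NULL cells, so most cells called male there rest on absent Xist alone. The other 214 S2CK cells, with a median of 2297 UMIs, lacked Xist but could not be called male. The study lists S2CK as male and female, a difference that could not be settled here. Sex and genotype therefore cannot be told apart for WT against S2CK. Cdkn1b, which encodes p27, was at 33.6, 29.1 and 16.6 CPM (UMIs scaled to a total of 1000000) in melanotrophs of WT, P27NULL and S2CK, so its transcripts gave no check of the library labelled P27NULL, and the bases that the null allele lacks are not given in the sources used here. Sox2 was at 267, 303 and 132 CPM in the SC-like cells. In melanotrophs it was at 45.2, 40.2 and 25.9 CPM, so the low S2CK level was not particular to the SC-like cells.

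Melanotrophs were taken as cells with at least 5% of UMIs from Pomc and at least 2 Pcsk2 UMIs that did not belong to another named cluster, which gave 1196 WT, 3410 P27NULL and 2896 S2CK cells. Since that rule used Pcsk2 and Pomc, the main results are also given for the 1245, 3549 and 2992 melanotrophs of clusters built without the 6 genes and without Pomc. The melanotroph markers Pax7, Oacyl, Megf11, Rbfox3, Drd2 and Esm1 were all detected in the gated cells, at summed levels of 1190, 1550 and 1063 CPM, and the 8 SC markers summed to 71.1, 72.4 and 54.1 CPM in the same cells. The other classes, named by their own markers, were corticotroph-like (167, 110 and 81 cells), gonadotroph-like (56, 133 and 40), Pou1f1-lineage (66, 35 and 39), SC-like (145, 106 and 85) and non-endocrine cells (341, 220 and 251). A CPM here is a count of 3′ transcript tags scaled to the UMIs of the class and was not divided by gene length.

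In melanotrophs, Pcsk2 and Pam were the members that set S2CK apart from both other libraries, and the remaining 4 genes stayed within 1.5-fold in every comparison. Pcsk2 was at 4353 CPM in WT (95% Poisson interval 4299 to 4407), 5696 in P27NULL (5655 to 5737) and 2470 in S2CK (2446 to 2494). Pam was at 943 CPM in WT (918 to 968), 903 in P27NULL (887 to 919) and 416 in S2CK (406 to 426). For both genes S2CK was the lowest library, and its interval did not overlap the other two.

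The log2 ratio of S2CK to P27NULL was -1.21 for Pcsk2 (95% interval -1.22 to -1.19), a level 0.434 times that of P27NULL. For Pam it was -1.12 (-1.16 to -1.07), a level 0.461 times that of P27NULL. Against WT the S2CK ratios were -0.82 for Pcsk2 (-0.84 to -0.79) and -1.18 for Pam (-1.23 to -1.13). The library labelled P27NULL differed from WT in a way that separated the 2 genes, with Pcsk2 higher by a log2 ratio of 0.39 (0.37 to 0.41) and Pam at -0.06 (-0.11 to -0.02).

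Among all 5704 genes with at least 500 melanotroph UMIs in S2CK and P27NULL together, 10.3% were lower in S2CK past 1.5-fold and 2.47% were higher, and of the 6 members 2 were lower and 0 higher. Pcsk2 ranked 57th and Pam 73rd from the lowest ratio. For S2CK against WT the background was 5.15% lower and 3.00% higher over 4560 genes, and again 2 of the 6 members were lower and 0 higher, with Pam 27th and Pcsk2 88th from the lowest. For P27NULL against WT, 2.36% of 4282 genes were higher and 0.981% lower, and of the 5 members that reached 500 UMIs 0 were called in either direction. The sixth, Pcsk1, had 491 UMIs in those 2 libraries. Over the 5, 6 and 6 members that reached 500 UMIs, the median log2 ratio was -0.06 for P27NULL relative to WT, -0.21 for S2CK relative to P27NULL and -0.30 for S2CK relative to WT, beside 0.05, -0.12 and -0.02 over all genes compared. These comparisons share libraries, so both comparisons of S2CK rest on the same S2CK cells.

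**Figure D1:**
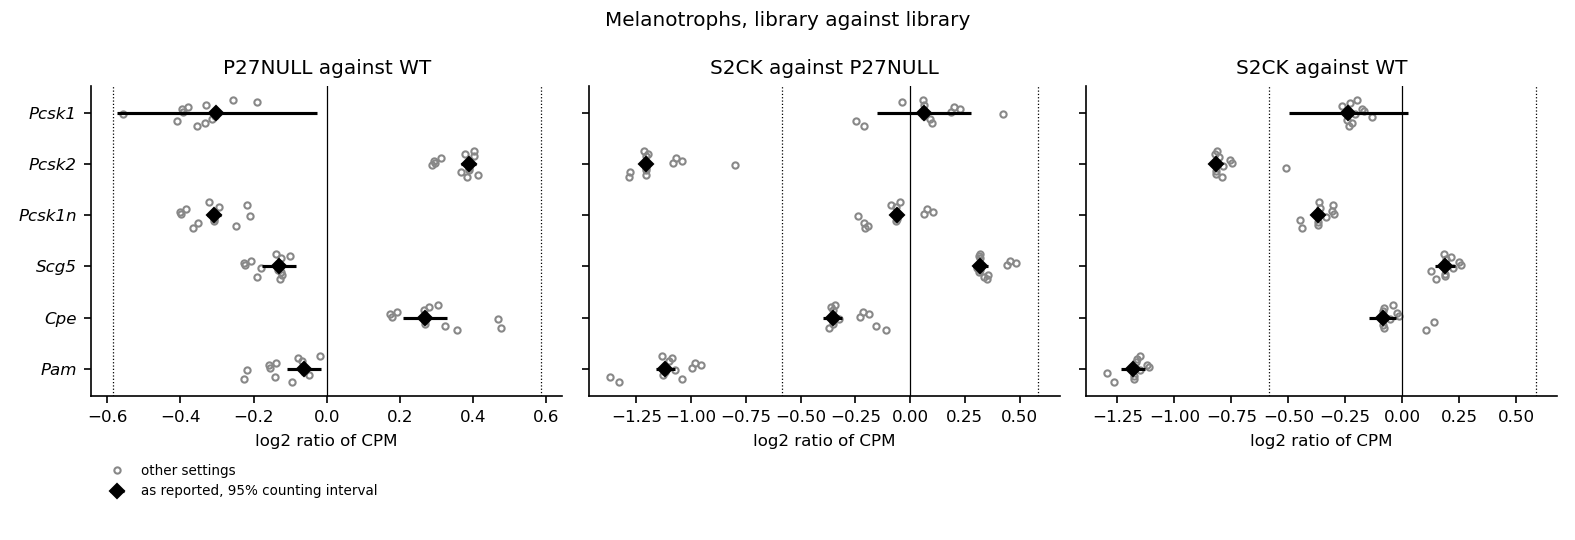
Log2 ratios of the 6 processing genes between libraries in melanotrophs, with 1 panel per comparison. Filled diamonds are the reported values with their 95% counting intervals, open circles are the same ratio under other processing choices, and dotted lines mark 1.5-fold. Pcsk2 and Pam lie left of the lower line in both comparisons of S2CK (-1.21 and -1.12 against P27NULL, -0.82 and -1.18 against WT) while the other genes stay between the lines.

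Rescaling moved all ratios together and left both calls in place. TMM factors, median-of-ratios factors and scaling without Pomc, mitochondrial and ribosomal protein genes raised every S2CK to P27NULL ratio by 0.14, 0.16 and 0.12. The background depended on this choice, with 141 genes higher and 589 lower by library totals and 358 higher and 331 lower by TMM. For S2CK against WT the split went from 137 higher and 235 lower to 187 and 181, and for P27NULL against WT from 101 and 42 to 65 and 56. Taking melanotrophs by cluster, Pcsk2 was at 4300, 5682 and 2445 CPM and Pam at 950, 938 and 428 CPM for WT, P27NULL and S2CK. The S2CK ratios were then -1.22 and -1.13 against P27NULL for Pcsk2 and Pam, so the low levels did not rest on the Pcsk2 term of the gate. When cells were first thinned to 1000 UMIs and then gated, the S2CK to WT ratio of Pcsk2 came to -0.51 and was inside 1.5-fold. With cluster melanotrophs thinned in the same way it stayed past 1.5-fold.

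Pam differed between female and male cells inside the P27NULL library. That library pooled male and female mice, so sex and mouse cannot be told apart in any class, and cells are not replicates of a sex. Female P27NULL melanotrophs had 1075 CPM of Pam and male ones 855, a log2 ratio of 0.33 (0.27 to 0.39). Female cells also had more Pcsk1n (5135 against 4500 CPM) and less Cpe (574 against 684), while Pcsk2 was at 5987 and 5613 CPM. With only the female cells of P27NULL, the S2CK to P27NULL ratio was -1.37 for Pam and -1.28 for Pcsk2, larger than with both sexes pooled.

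The low Pcsk2 and Pam of S2CK were present in every melanotroph cluster that held at least 20 cells in the libraries compared. Across clusters Pcsk2 ranged from 2054 to 3135 CPM in S2CK, from 3404 to 5469 in WT and from 5139 to 6039 in P27NULL. Pam ranged from 334 to 456 CPM in S2CK, from 736 to 1393 in WT and from 740 to 1208 in P27NULL. The ranges of S2CK did not overlap those of either other library. In the cluster led by the cell cycle genes Hist1h2ap, Top2a and Cenpf, Pcsk2 was at 4298, 5447 and 2602 CPM for WT, P27NULL and S2CK. In the cluster led by the interferon-response genes Isg15, Ifit3 and Ifit1, Pam was at 1369 CPM in WT and 334 in S2CK, the widest gap among clusters with at least 20 cells of both.

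The remaining PC2 partner, Scg5, moved the other way from Pcsk2. It was at 929 CPM in WT (905 to 955), 849 in P27NULL (833 to 865) and 1059 in S2CK (1044 to 1075). S2CK was thus the highest library for the PC2 chaperone and the lowest for PC2 itself, with a log2 ratio of Scg5 to P27NULL of 0.32 (0.29 to 0.35), which stayed between 0.31 and 0.48 under all other settings.

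Pcsk1 was the rarest of the 6 transcripts in melanotrophs. It was at 29.9 CPM in WT (25.6 to 34.7, 174 UMIs), 24.2 in P27NULL (21.6 to 27, 317 UMIs) and 25.3 in S2CK (22.9 to 27.9, 415 UMIs). All 3 intervals overlapped, and the log2 ratio of P27NULL to WT was -0.30 (-0.57 to -0.03). For S2CK against P27NULL the ratio was 0.06 (-0.15 to 0.28), and it turned to -0.25 when only female P27NULL cells were used, so that no direction could be read at this depth.

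The PC1/3 inhibitor gene Pcsk1n was, by contrast, abundant. It was at 5738 CPM in WT (5676 to 5800), 4638 in P27NULL (4601 to 4675) and 4444 in S2CK (4412 to 4477). WT was the highest, by log2 ratios of -0.31 for P27NULL and -0.37 for S2CK, both within 1.5-fold. Between S2CK and P27NULL the ratio was -0.06 and changed sign under all 3 other scalings, to values from 0.06 to 0.10.

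Cpe was highest in P27NULL. It was at 546 CPM in WT (528 to 566), 658 in P27NULL (644 to 672) and 515 in S2CK (504 to 526). P27NULL exceeded WT by a log2 ratio of 0.27 (0.21 to 0.33), and S2CK was below P27NULL by -0.35 (-0.40 to -0.31). Pomc itself was at 176505, 137638 and 141446 CPM, so the order of Cpe over libraries was not that of its substrate.

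Cell by cell and before thinning, all members but Pcsk1 were found in most melanotrophs. To compare libraries of different depth, each cluster melanotroph was thinned to 1000 UMIs, which left 1223 WT, 3549 P27NULL and 2992 S2CK cells. Pcsk2 was then seen in 95.3, 97.7 and 86.6% of cells and Pcsk1n in 98.6, 97.5 and 96.8%. Pam was seen in 55.6, 50.4 and 31.8% of cells, where the unthinned shares of 91.0, 77.2 and 79.5% had put S2CK above P27NULL. Scg5 was seen in 61.4, 56.0 and 65.5%, Cpe in 37.9, 47.8 and 40.4%, and Pcsk1 in 2.94, 2.31 and 2.51%. The thinned shares followed the order of the CPM for each of the 6 genes except Cpe, whose share in S2CK lay above that in WT and whose S2CK to WT ratio went from -0.04 to 0.10 on thinning.

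The variance over the mean between cells differed among the genes. At 1000 UMIs the variance over the mean of Scg5 was 1.08, 1.06 and 1.05 and that of Cpe 1.04, 1.06 and 1.03, close to the value of 1 that counting alone gives. This measure grows with the mean level of a gene whose cells differ. It was 1.75, 2.09 and 1.33 for Pcsk2 and 1.51, 1.46 and 1.21 for Pam, and 35.2, 21.4 and 19.0 for Pomc. Pcsk2, Pam and Pcsk1n (1.80, 1.76 and 1.48) were thus the members whose counts spread beyond counting error among melanotrophs of the same library.

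**Figure D2:**
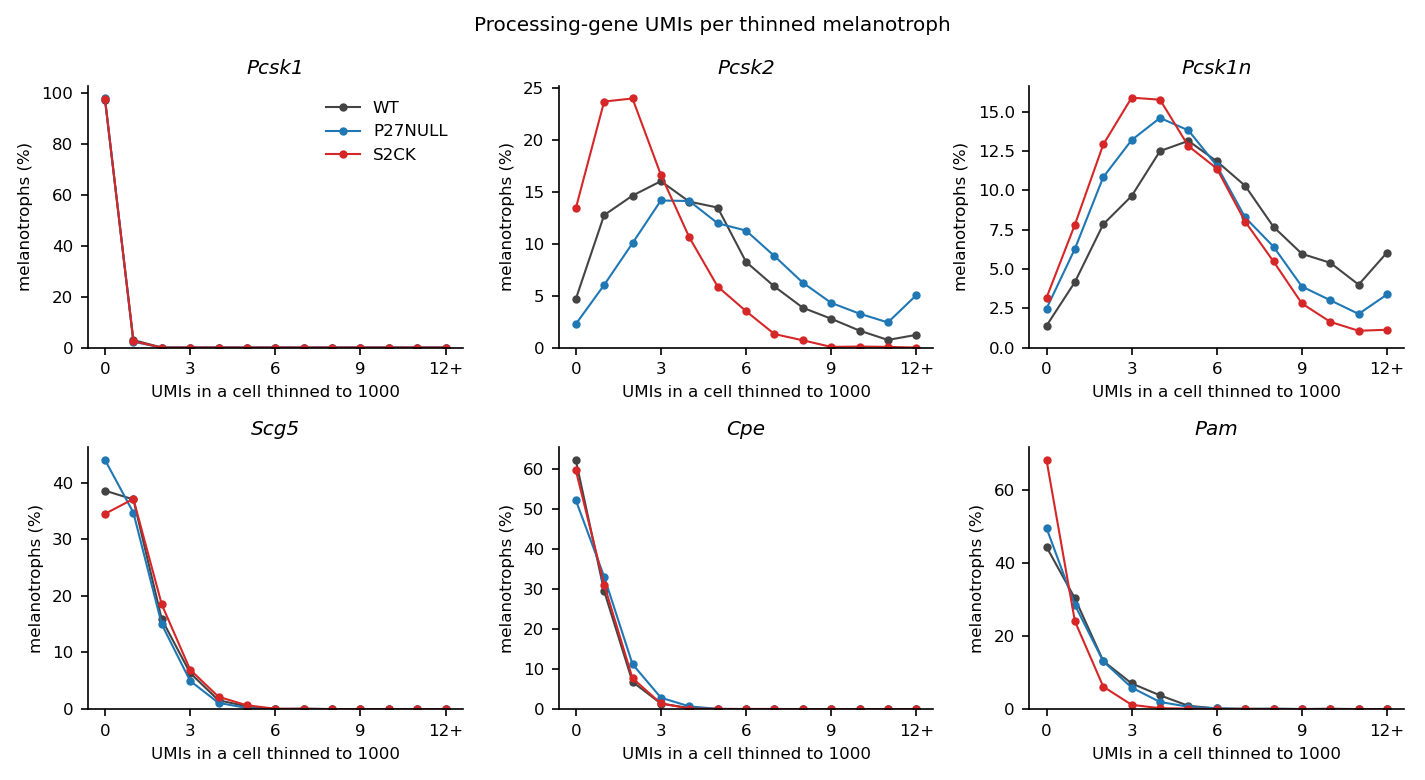
Percent of cluster melanotrophs (vertical axis) with each number of UMIs of a gene (horizontal axis, 12 or more pooled) after thinning every cell to 1000 UMIs, with 1 line per library. The Pcsk2 and Pam curves of S2CK are shifted to the left as wholes, to medians of 2 and 0 UMIs from 4 and 1 in WT, while the Scg5, Cpe and Pcsk1 curves of the 3 libraries lie close together.

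Thinned to 2000 UMIs, 40.8% of WT, 39.8% of P27NULL and 27.7% of S2CK melanotrophs held at least 1 UMI of all of Pcsk1n, Scg5, Cpe and Pam. Cells with Pcsk1 but without Pcsk2 numbered 0 of 1166, 0 of 2584 and 6 of 2931. Of the melanotrophs of WT, P27NULL and S2CK, 0.60, 0.155 and 2.87% held neither convertase.

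Some cells lay near the edge of the gate. Cluster melanotrophs outside the gate numbered 49 in WT, 139 in P27NULL and 96 in S2CK. Of all cluster melanotrophs, 18, 29 and 38 had exactly 1 Pcsk2 UMI, just outside, and 32, 78 and 58 had exactly 2, just inside. Pomc made up 4 to 5% of UMIs in 9, 31 and 22 cells and 5 to 6% in 22, 73 and 34 cells. In the cells outside the gate Pam was at 1286, 1698 and 771 CPM and Cpe at 553, 1025 and 1014 CPM, so Pam was above its level in the gate in all 3 libraries and S2CK was still the lowest.

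Across cell classes the 6 genes fell into different distributions. Pcsk2 was highest in melanotrophs in all 3 libraries, Pcsk1 was highest in gonadotroph-like cells in WT, Pcsk1n and Scg5 were high in every endocrine class, and Cpe and Pam were also counted in SC-like and connective tissue cells.

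**Figure D3:**
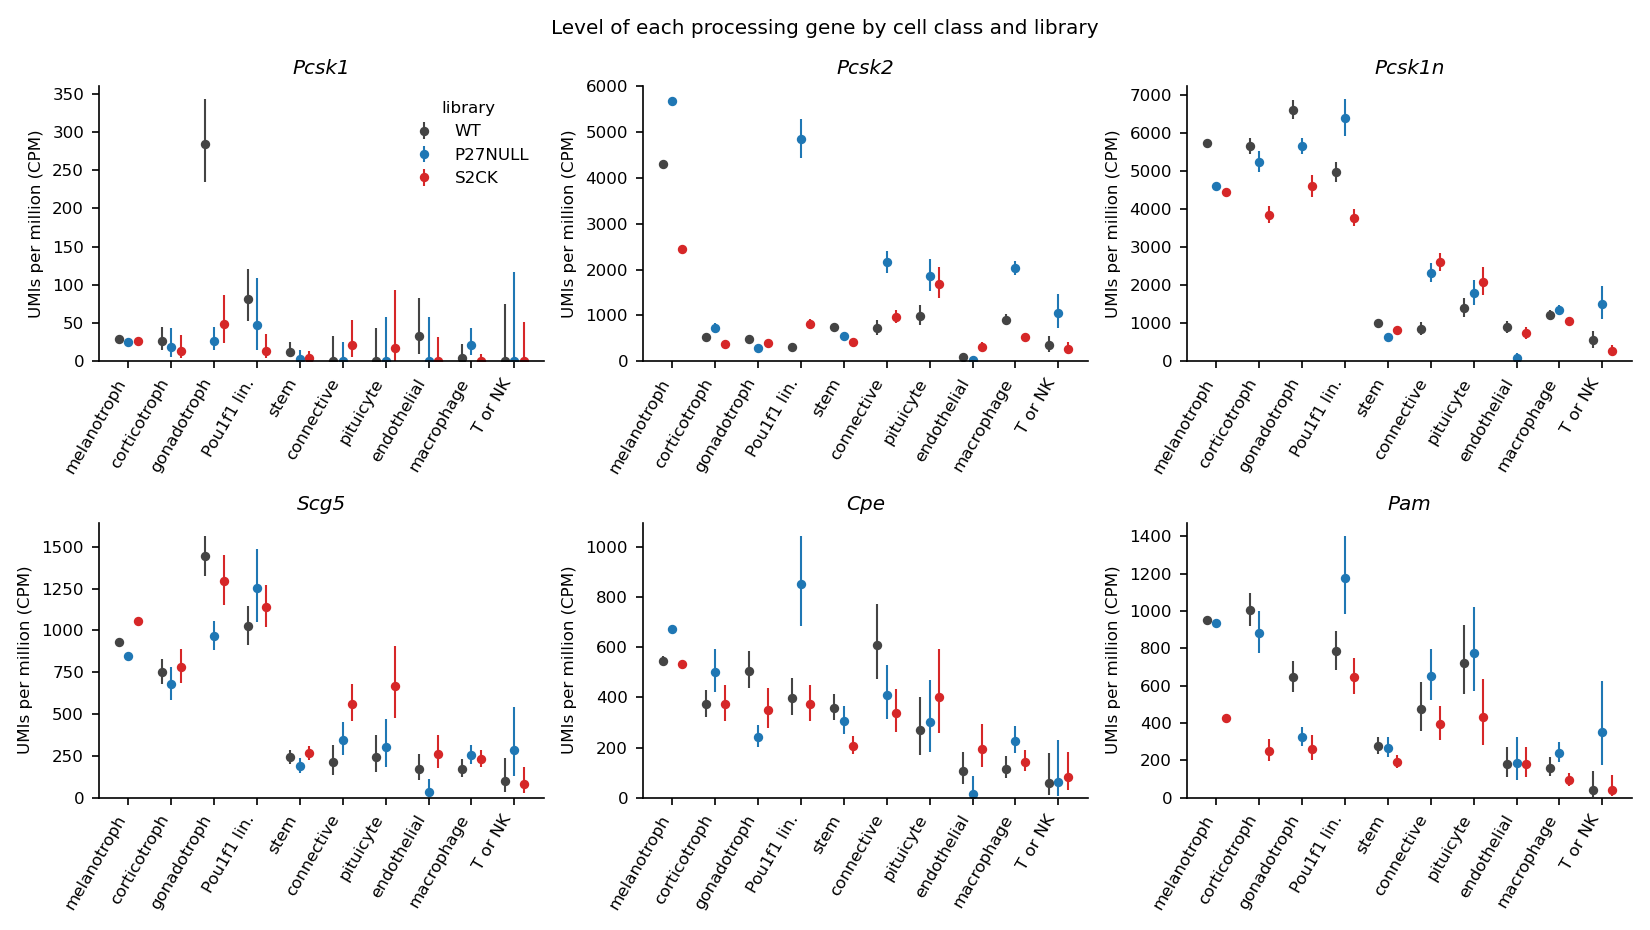
CPM (linear axis) of each processing gene in 10 cell classes, with 1 colour per library, melanotrophs taken by cluster, and bars for 95% Poisson intervals. Pcsk2 peaks in melanotrophs (4300, 5682 and 2445 CPM for WT, P27NULL and S2CK), the WT point of Pcsk1 stands out in gonadotroph-like cells (285 CPM), and the S2CK point of Pam lies below both others in every class but T or NK cells, with intervals apart from both others in melanotrophs and corticotroph-like cells.

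Free RNA from broken melanotrophs can enter every droplet and limits what can be read in rarer classes. If the Pomc UMIs of a class that does not make Pomc came from such RNA, each member should accompany them in the ratio found in melanotrophs. Free RNA of other cells was not part of that expectation, so counts above it may include such RNA. The gonadotroph marker Cga, for example, was at 516, 762.5 and 12.5 CPM in SC-like cells of WT, P27NULL and S2CK. This expectation was set beside the observed UMIs in 21 classes by library with at least 20 cells. A member was called above it when the lower bound of observed over expected exceeded 1.5, which held in 6 of the 21 for Pcsk1, 2 for Pcsk2, 7 for Pcsk1n, 8 for Scg5, 12 for Cpe and 14 for Pam. Leaving out the few cells of these classes that pass the melanotroph gate, the numbers were 6, 2, 11, 10, 16 and 16. Pcsk2 thus followed Pomc almost everywhere outside melanotrophs, whereas Cpe and Pam had counts beyond it in most classes. The melanotroph gate uses Pcsk2 and Pomc, so leaving out its cells removes UMIs of both by rule, here and in the classes below.

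**Figure D4:**
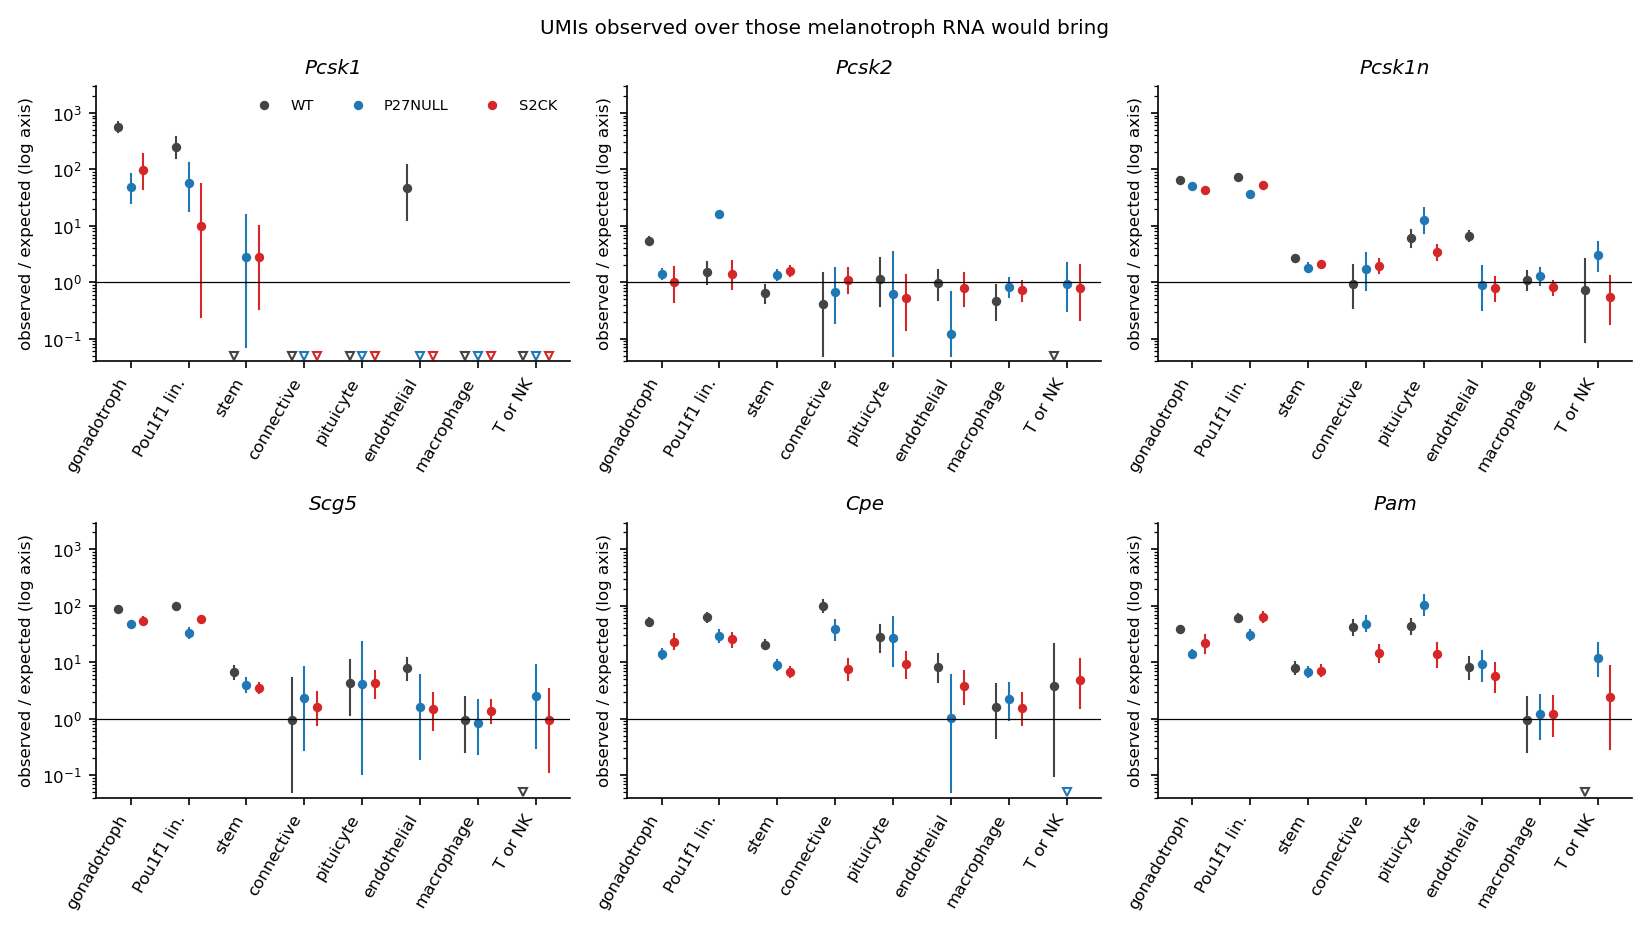
Observed UMIs of each gene over the UMIs expected from melanotroph RNA (log axis) in classes that do not make Pomc, for cells that fail the melanotroph gate, with 95% Poisson intervals and open triangles for 0 UMIs. Pcsk2 scatters around 1 in most classes, while Pcsk1n, Scg5, Cpe and Pam rise far above 1 in gonadotroph-like and Pou1f1-lineage cells.

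In non-endocrine cells Pcsk2 was at 678, 1792 and 666 CPM, or 1.16 (1.05 to 1.28), 0.99 and 0.92 times the expected number of UMIs in WT, P27NULL and S2CK. Most of these UMIs came from the 19, 45 and 41 of these cells that pass the melanotroph gate, and without them 28, 37 and 58 Pcsk2 UMIs remained of 421, 1144 and 541, at 0.65, 0.71 and 0.79 times the expectation. Since the gate requires at least 2 Pcsk2 UMIs, its cells hold such UMIs by rule, and this drop follows in part from that rule. In macrophage or microglia-like cells every member but Pcsk1 was between 0.74 and 1.17 times the expectation, and between 0.46 and 2.21 times without the gated cells, where none was called above it.

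The convertase Pcsk1 stood out in gonadotroph-like cells, the cells that make LH and FSH. It was at 285 CPM in WT (234 to 343, 110 UMIs), 26.3 in P27NULL (14.0 to 45.0, 13 UMIs) and 48.8 in S2CK (24.4 to 87.3, 11 UMIs). A UMI was seen in 36 of 56 WT cells (64.3%), 9 of 133 P27NULL cells (6.77%) and 6 of 40 S2CK cells (15.0%), at median depths of 6886, 2684 and 4681 UMIs. In non-endocrine cells the shares were 0.587, 2.73 and 1.59% at median depths of 1370, 2056.5 and 2439 UMIs. Among these, macrophage or microglia-like cells were at 4.01, 21.0 (8.44 to 43.2) and 0 CPM in WT, P27NULL and S2CK. In gonadotroph-like cells WT was high and the 2 other libraries low, with intervals that did not overlap WT.

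Thinned to 1000 UMIs, 28.8% of 52 WT, 1.5% of 133 P27NULL and 2.5% of 40 S2CK gonadotroph-like cells held a Pcsk1 UMI. At least 2 Pcsk1 UMIs were found in 25, 3 and 3 cells, and without the highest cell the levels were 261, 20.4 and 32.8 CPM, so the WT level did not rest on 1 cell. The log2 ratio to WT was -3.44 for P27NULL (-4.39 to -2.60) and -2.54 for S2CK (-3.59 to -1.65). In WT, 12 of 52 cells thinned to 2000 UMIs held Pcsk1 without Pcsk2 and 4 held both.

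Other measures of these cells moved with that result. The gonadotroph hormone transcripts were also highest in WT, with Lhb at 4119, 2744 and 1207 CPM and Fshb at 8083, 2541 and 1376 CPM for WT, P27NULL and S2CK. Within P27NULL, 13 gonadotroph-like cells were female and 119 male, with Pcsk1 at 50.6 and 23.1 CPM on 3 and 10 UMIs. At equal depth 18 Pcsk1 UMIs remained in 52 WT cells, 2 in 133 P27NULL cells and 1 in 40 S2CK cells. The 6 gonadotroph markers together were at 172500, 56220 and 61550 CPM, and the 6 melanotroph markers at 44.0, 105 and 249 CPM. The part of sex, hormone content and melanotroph RNA in the difference was not tested.

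Pam and Cpe in gonadotroph-like cells were highest in WT as well. Pam was at 645 CPM in WT (567 to 730), 324 in P27NULL (275 to 378) and 262 in S2CK (199 to 338). Cpe was at 508, 243 and 351 CPM, Scg5 at 1442, 967 and 1296 CPM and Pcsk1n at 6615, 5663 and 4606 CPM. All 4 exceeded the free RNA expectation in each library. Pcsk2 in these cells was at 482, 297 and 399 CPM, which was 2.97, 1.09 and 0.80 times the expectation. Without the gated cells it was at 417, 190 and 58.6 CPM, and WT was the library called above the melanotroph RNA expectation both ways.

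Corticotroph-like cells, which make ACTH in the anterior lobe, repeated the low Pam of S2CK. Pam was at 1004 CPM in WT (920 to 1094), 883 in P27NULL (774 to 1003) and 253 in S2CK (199 to 316). S2CK lay far below both, with log2 ratios of -1.99 to WT (-2.36 to -1.64) and -1.80 to P27NULL (-2.20 to -1.43). Without the cells that pass the melanotroph gate the ratios were -2.18 and -2.08.

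Thinned to 1000 UMIs, a Pam UMI was seen in 81 of 155 WT, 55 of 110 P27NULL and 13 of 81 S2CK cells. Whether the S2CK difference is larger in corticotroph-like cells than in melanotrophs was not tested. Within P27NULL, Pam was at 1089 CPM in female and 772 CPM in male corticotroph-like cells, so the female cells of that library were the higher, as in melanotrophs.

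The convertases were both sparse in corticotroph-like cells. Pcsk1 was at 26.9 CPM in WT (14.7 to 45.1, 14 UMIs), 18.6 in P27NULL (6.05 to 43.5, 5 UMIs) and 13.3 in S2CK (3.62 to 34.1, 4 UMIs), with intervals that overlapped each other and those of melanotrophs. Pcsk2 was at 536, 723 and 376 CPM, and at 166, 364 and 147 CPM without the gated cells. Thinned to 2000 UMIs, 86 of 129 WT, 33 of 55 P27NULL and 62 of 80 S2CK cells held neither convertase. Since these cells make Pomc themselves, no free RNA expectation could be set for them.

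The binding partners were not sparse there. Pcsk1n was at 5648 CPM in WT (5446 to 5856), 5249 in P27NULL (4979 to 5531) and 3851 in S2CK (3632 to 4079), similar to its level in melanotrophs. Scg5 was at 753, 678 and 781 CPM and Cpe at 374, 503 and 372 CPM. Pcsk1n was lowest in S2CK, an order that in melanotrophs changed with the scaling, and Cpe was highest in P27NULL as in melanotrophs, though its intervals overlapped.

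In the Pou1f1 lineage, which makes growth hormone, prolactin and TSH, a few cells set the Pcsk2 level. The level was 306 CPM in WT, 4841 in P27NULL and 803 in S2CK, with the 5 highest cells holding 84.4, 89.6 and 94.0% of the UMIs. Without them it was 53.0, 652 and 59.5 CPM, and 23 of the 35 P27NULL cells held no Pcsk2 UMI. Among the 55, 21 and 33 cells with at least 1% of UMIs from Gh, Prl and Tshb, Pcsk2 was at 48.7, 64.7 and 60.6 CPM, so the high P27NULL value belonged to cells of the cluster below that hormone share.

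In those hormone-positive cells Pcsk1 was at 85.2 CPM in WT (52.7 to 130, 21 UMIs), 16.2 in P27NULL and 4.33 in S2CK, the last 2 on 1 UMI each. WT had the highest value, with an interval that overlapped that of P27NULL (0.41 to 90.1) and not that of S2CK. Pam was at 600, 889 and 446 CPM, Cpe at 373, 372 and 225 CPM, Pcsk1n at 4335, 6773 and 4048 CPM and Scg5 at 965, 954 and 1061 CPM. S2CK had the lowest Pam and Cpe of the 3 libraries, with a Pam interval (364 to 541) that overlapped WT (507 to 705).

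SC-like cells, the Sox2 and Sox9 expressing cells that line the cleft, are described with and without the 12 WT, 7 P27NULL and 8 S2CK cells among them that pass the melanotroph gate, since those cells held most of the Pomc UMIs of the class. Cpe was at 359 CPM in WT (312 to 413), 306 in P27NULL (253 to 366) and 207 in S2CK (173 to 245), and without the gated cells at 270 (223 to 323), 252 (202 to 311) and 185 (150 to 226). It was above the melanotroph RNA expectation in every library, at 3.55, 4.34 and 2.54 times with all cells. S2CK was the lowest both ways, but without the gated cells its interval overlapped both others.

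Pam in SC-like cells was at 278 CPM in WT (236 to 325), 267 in P27NULL (218 to 323) and 193 in S2CK (160 to 230), and at 181, 261 and 159 CPM without the gated cells. With all cells Pam was called above the melanotroph RNA expectation in P27NULL and S2CK, and Scg5 in P27NULL. Without the gated cells Pam (7.98, 6.84 and 7.14 times the expectation) and Scg5 (6.66, 4.04 and 3.54 times) were called in all 3 libraries. Pcsk2 was at 740, 557 and 411 CPM, or 0.92, 0.91 and 1.05 times the expectation. Without the gated cells it was at 66.3, 325 and 210 CPM, or 0.63, 1.35 and 1.59 times, so the order of the libraries turned, and 1 cell held 34.5, 57.1 and 68.5% of those UMIs. Pcsk1 rested on 7, 1 and 3 UMIs.

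Connective tissue cells carried Cpe and Pam too. Cpe was at 609, 411 and 339 CPM and Pam at 477, 650 and 392 CPM, and without gated cells Cpe was at 639, 326 and 219 CPM. In pituicyte-like cells, the glia of the posterior lobe, Pam was at 723, 774 and 433 CPM on 62, 49 and 26 UMIs. Endothelial cells had the lowest Pam of these classes, at 179, 188 and 178 CPM, with intervals that together spanned 96.9 to 328 CPM.

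Within melanotrophs, Pcsk2 was the member most closely tied to Pomc from cell to cell. Cells were thinned to 1000 UMIs and members taken as a share of the UMIs other than Pomc. Spearman's rho with the Pomc share was then 0.41 in WT, 0.29 in P27NULL and 0.30 in S2CK for gated cells, and 0.45, 0.30 and 0.31 for cluster melanotrophs. Among the 225, 233 and 235 genes with a mean of at least 0.5 UMIs per thinned cell, 1 gene in each library had a higher rho than Pcsk2, and the median gene was at 0.09, 0.11 and 0.12.

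Scg5 and Cpe also exceeded the median gene. Their rho was 0.18, 0.19 and 0.22 for Scg5 and 0.18, 0.21 and 0.20 for Cpe. Pam was at 0.13, 0.12 and 0.09, on both sides of the median gene, and Pcsk1 at 0.09, 0.02 and 0.03, below it. With means of 0.030, 0.023 and 0.025 UMIs per thinned cell, Pcsk1 was far sparser than the genes compared, so its rho cannot be ranked against theirs. Cpe in WT and Pam in S2CK, with means of 0.474 and 0.411, also lay below the 0.5 UMIs of those genes. That limits how their rho can be set beside the median gene. Pcsk1n was at -0.22 in WT, 0.10 in P27NULL and 0.04 in S2CK, and as a share of all UMIs it was at -0.36, -0.02 and -0.08, so that its sign held in WT and turned in the other libraries. All points share a library, its depth and its free RNA, and rho is given as a description.

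In 4 bins of cluster melanotrophs by Pomc share, Pcsk2 went from 3143 CPM, taken over UMIs other than Pomc, in the lowest bin to 6879 in the highest in WT, from 4945 to 7720 in P27NULL and from 2063 to 3332 in S2CK. Thus the highest bin of S2CK was close to the lowest bin of WT. Cpe went from 472 to 782, from 621 to 935 and from 520 to 731, and Scg5 from 1058 to 1342, from 877 to 1111 and from 1110 to 1362. Pcsk1 went from 21.3 (7.82 to 46.4, 6 UMIs) to 80.0 (47.4 to 126, 18 UMIs) in WT. In P27NULL it went from 21.9 to 32.7 and in S2CK from 24.7 to 37.0, with overlapping intervals. Pcsk1n went from 7596 down to 5817 in WT and from 5177 up to 6094 in P27NULL, and was at 4980 and 5022 in S2CK. Pam went from 1151 to 1311, from 962 to 1077 and from 434 to 537, so that S2CK was below both other libraries in each of the 4 bins.

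**Figure D5:**
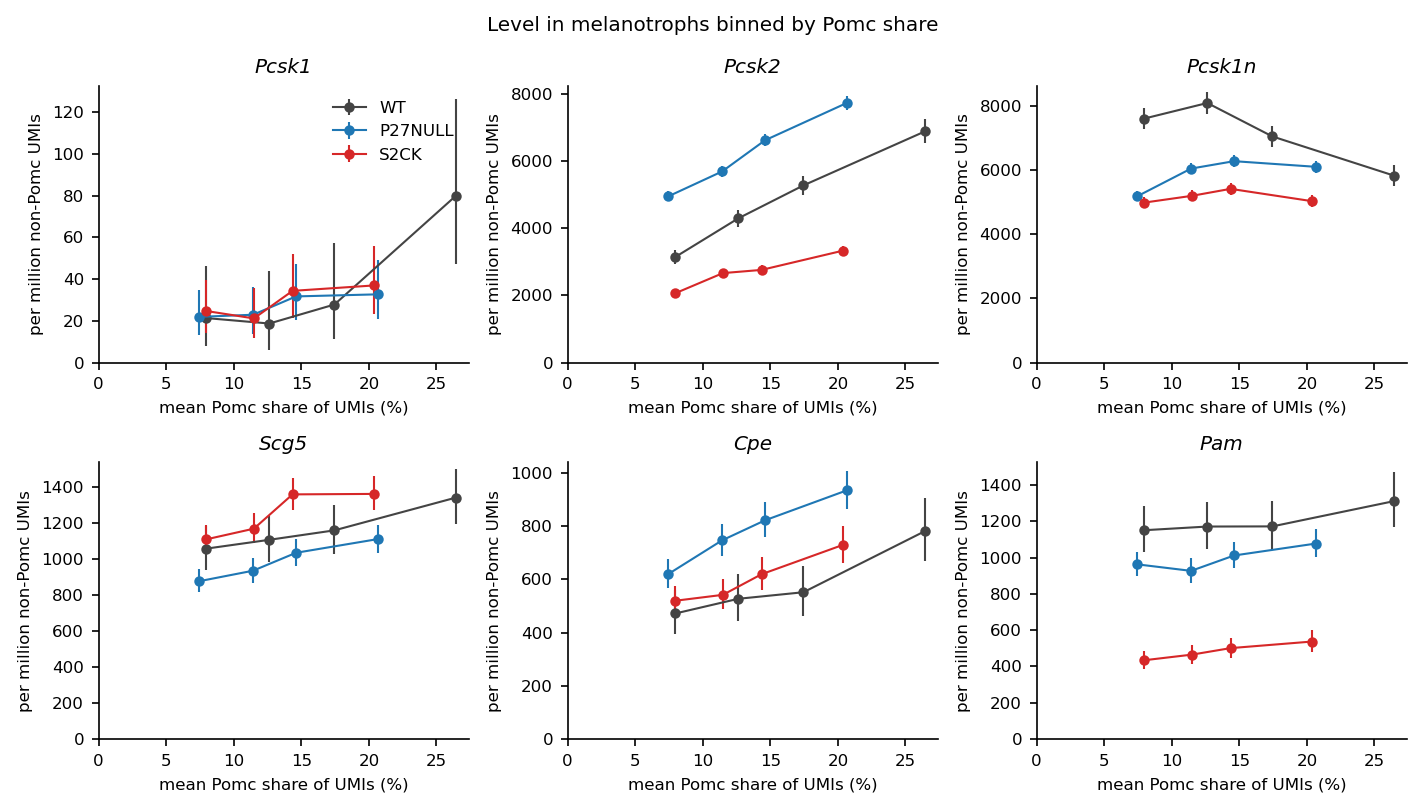
CPM of each gene over UMIs other than Pomc (vertical axis) in 4 bins of cluster melanotrophs ordered by the percent of UMIs from Pomc (horizontal axis), thinned to 1000 UMIs per cell, with 95% Poisson intervals. The Pcsk2 lines slope upward in each library (3143 to 6879 in WT), the Pcsk1n line of WT slopes downward (7596 to 5817), and the Pam line of S2CK lies beneath the others (434 to 537).

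Members were weakly related to each other from cell to cell. The pair Pcsk2 and Pcsk1n was at rho of -0.27, -0.09 and -0.13 in WT, P27NULL and S2CK, the value most distant from 0 in WT and S2CK. In P27NULL that was the pair Pcsk2 and Cpe, at 0.12. Over the 27 classes by library with at least 20 cells, in contrast, log2 levels of Pcsk1n and Scg5 ran almost in parallel (Pearson r of 0.97), whereas those of the convertases Pcsk1 and Pcsk2 did not (0.18). Among 3829 genes compared over these classes, those most like Pcsk2 were Alcam (0.82), Oacyl (0.80) and the dopamine receptor gene Drd2 (0.80), and Oacyl and Drd2 are among the markers that named the melanotrophs. The genes most like Pcsk1 were Cxcl14 (0.82), the granin gene Scg2 (0.81) and Ndufa1 (0.79). For Pcsk1n and Scg5 each was the nearest gene to the other, followed by Bex2 (0.95 and 0.93). Cpe was nearest to 0610009B22Rik (0.92), C1qtnf4 (0.91) and Gprasp1 (0.90), and Pam to Ociad2 (0.89), Golgb1 (0.89) and Spcs1 (0.88).

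In a wider list of processing genes few members differed past 1.5-fold. Of 23 further proteases, exopeptidases, cofactors and proton pump subunits listed, 22 had a row, and 7, 9 and 7 of them reached 500 melanotroph UMIs in the comparisons P27NULL against WT, S2CK against P27NULL and S2CK against WT. The gene past 1.5-fold among these was Ctsb (cathepsin B, a lysosomal protease), at 161, 202 and 123 CPM for WT, P27NULL and S2CK, with a log2 ratio of S2CK to P27NULL of -0.71 (-0.80 to -0.63). Ctsl (cathepsin L) was at 224, 225 and 293 CPM, the proton pump genes Atp6ap2 and Atp6v0a1 at 208, 151 and 186 CPM and at 90.3, 91.5 and 67.2 CPM, all within 1.5-fold. Furin, the convertase of the constitutive pathway, was at 11.2, 16.9 and 16.0 CPM on 65, 221 and 262 UMIs, with a log2 ratio of P27NULL to WT of 0.60 (0.19 to 1.02). At a minimum of 10 UMIs, where 11.7% of all genes were higher and 5.2% lower for P27NULL relative to WT, 5 of the 20 listed genes that passed were higher (Furin, Pcsk5, Cpm, Cpz and Kalrn) and 0 lower. For S2CK relative to P27NULL 1 was higher (Qpct, which forms pyroglutamate at peptide ends) and 4 lower (Ctsb, Cpm, Cpz and Prcp), beside 6.26% and 17.3% of all genes. For S2CK relative to WT, Pcsk5 was higher and Prcp lower, beside 9.14% and 11.7%.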

How the data were processed

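Single-cell 3′ libraries (10x Genomics Chromium) were made from dissected ILs, with 1 library per genotype. The deposited tables hold raw UMI counts per gene and cell, which the authors made with Cell Ranger 3.0.2 (STAR 2.5.1b in the submitters' processing notes, with R 3.6.0 and Seurat 3) on mm10 (GRCm38). The study's methods removed cells with fewer than 50 genes or over 10% mitochondrial expression. All cells in the tables were used, and 0 columns were left unused. The lowest counts differed between libraries. WT cells went down to 502 UMIs and 213 genes, and 162 of them had under 1000 UMIs. The lowest in P27NULL were 1005 UMIs and 502 genes, and in S2CK 1002 UMIs and 517 genes.

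Cells were clustered jointly (scanpy 1.11.5, igraph 0.11.9, Python 3.11.15, numpy 2.4.6) on 2000 variable genes, 20 principal components and 20 neighbours at Leiden resolution 1, without the 6 members, Pomc and sex-linked genes. Clusters were named from marker lists with thresholds set after the data had been seen. The members and lists were chosen with earlier results of these data known. Scrublet marked 4 cells, so that it did not work here, and the 268 cells of highest score were instead left out as an alternative. UMIs were summed per class and library. CPM carry exact Poisson, shares exact Clopper-Pearson and log2 ratios exact conditional binomial 95% intervals (scipy 1.17.1), which cover counting error only. A ratio past 1.5-fold between summed counts of at least 500 UMIs counts as called, and with 1 library per genotype no test was run. Other scalings used edgeR 4.0.16 in R 4.3.3 (TMM) and median-of-ratios factors. The interval code was tested on simulated counts. All 6 members and Pomc are named, with the further processing genes past 1.5-fold or among the 4 highest, and the 3 genes nearest in pattern to each member.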

Additional observations from a re-analysis of the deposited data

Results flagged for a closer look

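Some ratios between libraries pointed in opposite directions in different cell classes, and these differences between classes were not tested. For P27NULL against WT, the log2 ratio of Pcsk2 was 3.99 in the Pou1f1 lineage and -0.70 in gonadotroph-like cells. For Cpe the same ratios were 1.10 and -1.06, and for Pam 0.59 and -0.99. In the hormone-positive cells of the Pou1f1 lineage Cpe was at 373 and 372 CPM in WT and P27NULL, so the Cpe difference was not seen there, and Pam was at 600 and 889 CPM. For S2CK against WT, Pcsk2 was at 1.39 in the Pou1f1 lineage against -0.82 in melanotrophs and -0.85 in SC-like cells. Without the cells that pass the melanotroph gate, which uses Pcsk2 itself, both of the rarer classes turned, to -0.34 in the Pou1f1 lineage and 1.66 in SC-like cells. The Pou1f1-lineage ratios rest on few cells, since 6 of the 35 P27NULL cells held at least 10 Pcsk2 UMIs and the 5 highest held 89.6% of them, and in the cells with Gh, Prl or Tshb the Pcsk2 level was 48.7, 64.7 and 60.6 CPM for WT, P27NULL and S2CK.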

How the results depend on the processing

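The 18 log2 ratios of the 6 members in melanotrophs were recomputed under other gates, scalings, depths, cell filters and sexes, which gave 204 values, of which 203 stayed on their side of 1.5-fold and 196 kept their sign. The exception to the first was Pcsk2 in S2CK against WT (-0.51) when cells were thinned to 1000 UMIs before the gate, which took the members lower past 1.5-fold from 2 to 1, and the cause was not tested. Sign changes were seen for Pcsk1 in S2CK against P27NULL (-0.04 with a stricter gate, -0.25 with female P27NULL cells and -0.21 with female P27NULL cells by cluster), for Pcsk1n in the same comparison (0.08, 0.10 and 0.06 under TMM, median-of-ratios and Pomc-free scaling) and for Cpe in S2CK against WT (0.14 and 0.10 in thinned cells). The classes with Pcsk2 above the melanotroph RNA expectation went from 2 to 1 with each library clustered alone, and those with Pcsk1n from 7 to 11 without gated cells. The last was an alternative added after the data had been seen, as were the thinned and female cluster melanotrophs. With at least 10 UMIs in place of 500, the background past 1.5-fold was 1607 genes higher and 713 lower of 13716 for P27NULL to WT, 896 and 2471 of 14321 for S2CK to P27NULL, and 1258 and 1615 of 13760 for S2CK to WT. Taking members as a share of all UMIs lowered the rho of Pcsk2 with Pomc to 0.27, 0.18 and 0.14 in WT, P27NULL and S2CK. Clusters of each library alone named no corticotroph-like cells in WT and P27NULL, and S2CK was not set against WT within 1 sex, since the S2CK table had no Y-linked row by which to call male cells. No paired analysis was possible because each genotype had 1 library. Counts limit Pcsk1 most, with at most 14 UMIs in corticotroph-like cells of any library.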
